A study of Mus musculus with 6 samples.

Results

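Chemokine receptors are cell surface receptors that guide blood cells along gradients of small secreted proteins, the chemokines. Messenger RNA for 8 of them was examined in megakaryocyte progenitors (MkP), the sorted precursors of megakaryocytes and platelets. The genes were Cxcr4, Cxcr2, Cxcr3, Ccr1, Ccr2, Ccr7, Ccr9 and Cx3cr1. They were followed through every probe set that the platform annotation assigns to them, 17 of the 45037 probe sets other than controls. A probe set is a group of short array probes against 1 transcript, and its signal is not comparable with that of another probe set.

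Fetal liver MkP at E13.5 (3 arrays) were set against bone marrow MkP of adult mice aged 12 to 18 weeks (3 arrays). All mice were wild-type C57BL/6. Cells of either tissue were sorted by flow cytometry as negative for lineage markers and Sca-1 and positive for c-kit, CD150 and CD41, and total RNA went onto 1 Affymetrix array per sample. How many animals or embryos each sample pooled is not stated in the labels, so the p-values measure the spread between these samples, which may be partly technical. Of the genes that encode the sort markers, Itga2b (CD41), Kit and Slamf1 (CD150) were above background on all 6 arrays. None of the 3 passed the test between tissues (limma adjusted p = 0.133, 0.419 and 0.698). For Itga2b every fetal liver signal was nonetheless under every marrow signal (log2 change -0.64, 95% interval -1.13 to -0.15, limma unadjusted p = 0.0153). Those of Kit and Slamf1 overlapped.

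CXCR4 binds CXCL12, the chemokine that holds blood stem and progenitor cells in the marrow niche and draws megakaryocytes towards marrow vessels. CCR1, CCR2 and CX3CR1 are best known on monocytes and their relatives, and CXCR2 is the main receptor of neutrophils for their chemokines. CXCR3, CCR7 and CCR9 are best known for the traffic of lymphocytes. All are coupled to inhibitory G proteins, and receptor kinases, arrestins and regulators of G protein signalling limit how long they signal.

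Only Cxcr4 passed the test, and it was lower in fetal liver. A probe set was taken as above background on an array when its signal exceeded the highest of 27 bacterial control probe sets there, which lay between 22.2 and 35.1 over the arrays. By this limit Cxcr4 and Ccr9 were above background on all 6 arrays through at least 1 probe set. Cxcr2 and Ccr2 were so on 2 and 1 of the 3 fetal liver arrays and on all 3 marrow arrays. Cxcr3 was above background on 2 fetal liver arrays and 1 marrow array. Ccr1, Ccr7 and Cx3cr1 were above it on 0 fetal liver arrays and on 2, 1 and 2 marrow arrays.

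The test covered 27022 probe sets whose mean log2 signal lay above the 40th percentile, and 5 of the 17 chemokine receptor probe sets were among them (1 each of Cxcr4, Cxcr2 and Ccr2, and 2 of Ccr9). The other 12 were below this filter and were not tested. Of the 5, 1 was lower in fetal liver at a limma adjusted p under 0.05 and 0 were higher, and at an unadjusted p under 0.05 these counts were 2 and 0. Over all 27022 probe sets 3.28% were lower by the same rule and 1.78% higher, 5.06% in all. Across all 17 probe sets, tested or not, 6 had every fetal liver signal under every marrow signal, and 0 had the reverse. These 6 belong to Cxcr4, Ccr1 and Ccr2 alone, with more than 1 probe set each for Ccr1 and Ccr2, so they are not independent. Over all 45037 probe sets 11.8% had every fetal liver signal under every marrow signal. Counting both directions, 20.5% had no overlap of tissues.

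**Figure D1:**
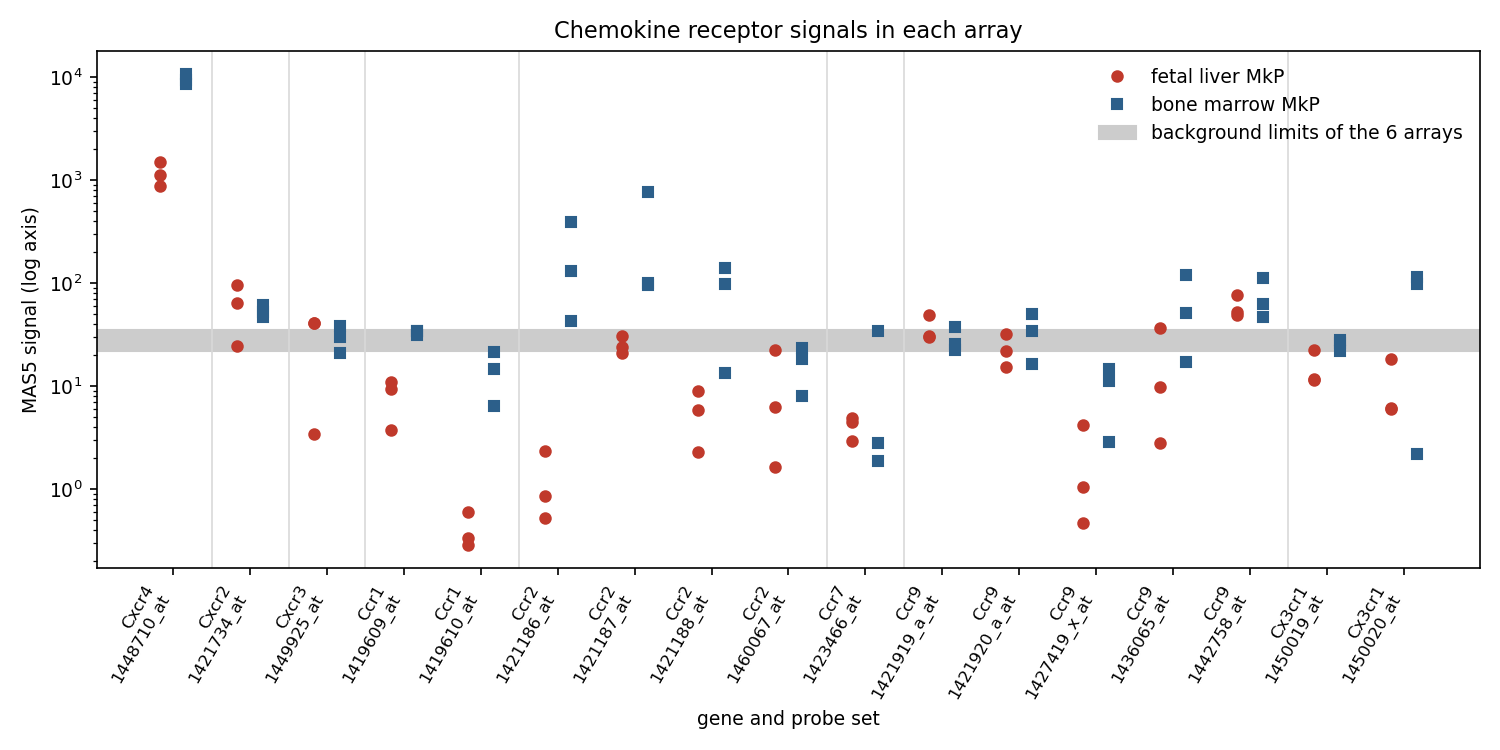
MAS5 signal (log axis) of the 17 probe sets of the 8 chemokine receptors, with 3 fetal liver arrays (red circles) left of 3 bone marrow arrays (blue squares) for each probe set and the range of the arrays' background limits as a grey band. Cxcr4 is far above the band in both tissues with fetal liver lower, and most other probe sets lie in or near the band.

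Cxcr4 had signals of 1139, 1506 and 893 in the fetal liver arrays, against 9376, 8638 and 10744 in the marrow arrays. The tissues did not overlap, and the highest fetal liver signal was well below the lowest marrow signal. The mean was 1179 ± 308 in fetal liver and 9586 ± 1069 in marrow (SD, n = 3 each). The log2 fold change was -3.05 ± 0.23 (SE, limma adjusted p = 6.16e-05), so the marrow level was 8.26 times the fetal liver level, with a 95% interval of 5.84 to 11.7. By p-value Cxcr4 ranked 21 among the 27022 probe sets, and by size 328 among those lower in fetal liver. The array carries 1 probe set for Cxcr4, so no second probe set checks this value. In RNA from whole samples, fewer cells that express a gene and less of its RNA per cell cannot be told apart.

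The size of the Cxcr4 difference was compared with a shift of the whole arrays. The median signal of all probe sets was 62.9 to 65.5 on the fetal liver arrays and 74.1 to 80.2 on the marrow arrays. Centring each array on its median moved the median change of all probe sets by 0.25 on the log2 scale, and Cxcr4 was then at -2.80. Relative to the median of all probe sets its change was -2.99, which centring cannot alter, and -3.11 after quantile normalization. For Actb the ratio of 5′ to 3′ signal, a measure of RNA and labelling quality, was 0.892 to 1.02 in fetal liver and 1.06 to 1.13 in marrow. For Gapdh this ratio was far lower and varied within each tissue, 0.109 to 0.449 in fetal liver and 0.099 to 0.303 in marrow. The part of RNA quality in the Cxcr4 difference was not tested.

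The 250 bases before the start of Cxcr4 are shown because this is the receptor whose RNA differed. Those of Ccr1 are shown beside them as those of a receptor with signals under the background limit on every fetal liver array. They were taken from RefSeq (GRCm38.p6), at chr1:128592300-128592549 for Cxcr4 and chr9:123968693-123968942 for Ccr1, both on the minus strand. Capitals mark matches, on either strand, to 5 motifs: the NRF1 core GCGCATG, the GC box GGGCGG, the TATA box TATAAA, the GATA site AGATAA and the PU.1 core GAGGAA.
Cxcr4: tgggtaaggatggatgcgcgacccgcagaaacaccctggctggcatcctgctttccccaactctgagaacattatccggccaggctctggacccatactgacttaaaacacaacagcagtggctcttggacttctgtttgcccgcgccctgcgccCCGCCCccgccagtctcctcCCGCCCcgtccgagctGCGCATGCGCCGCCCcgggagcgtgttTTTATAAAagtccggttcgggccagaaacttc
Ccr1: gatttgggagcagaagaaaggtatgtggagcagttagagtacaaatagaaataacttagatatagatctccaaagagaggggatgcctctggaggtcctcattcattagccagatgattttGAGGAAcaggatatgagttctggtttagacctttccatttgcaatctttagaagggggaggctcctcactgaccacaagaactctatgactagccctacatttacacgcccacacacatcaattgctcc

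The Cxcr4 window held 2 matches to the NRF1 core that overlap, 1 on each strand, and 3 GC boxes, the last of which shares 1 base with them. It also held 2 overlapping TATA box matches, 1 on each strand. Among 32851 mouse promoter windows of the same length, 3.24% held the NRF1 core, 32.7% a GC box and 12.4% a TATA box. The Ccr1 window held 1 PU.1 core (23.3% of windows), as did those of Cxcr2 and Cxcr3, and the Ccr2 window 1 GATA site (9.99% of windows). The Cxcr4 window had 61.2% G and C with 19 CpG pairs. Of all windows, 74.8% had less G and C than this and 80.3% had fewer CpG pairs. The other 6 receptors found in the table (Cxcr2, Cxcr3, Ccr1, Ccr2, Ccr9 and Cx3cr1) had 37.2% to 54.4% with 1 to 4 CpG pairs, and the medians over all windows were 52.4% and 6 pairs. These matches describe the letters of the windows and say nothing of binding in these cells.

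Ccr2, the receptor for CCL2 that carries monocytes out of the marrow, gave lower signals in fetal liver on 3 of its 4 probe sets without overlap, but its tested probe set did not pass. That probe set, 1421187_at, had 24.2, 30.8 and 21.2 in fetal liver, against 97.4, 100.5 and 776 in marrow. The fetal liver signals lay at or near the background limit, and marrow replicate 3 stood far above the other marrow arrays. The change was -2.84 ± 0.79 (log2, SE, limma adjusted p = 0.0666), with a 95% interval of -4.58 to -1.10. Without marrow replicate 3 it was -1.86 ± 0.62 (adjusted p = 0.128).

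Probe set 1421186_at of Ccr2 was below the filter on dim signals. It had 0.529, 2.34 and 0.872 in fetal liver, against 131, 43.1 and 396 in marrow. Marrow was above background on all 3 arrays and fetal liver on 0, so the level in fetal liver is known only as a bound. Set against the background limit, it was at least 4.12-fold lower in fetal liver. With no filter its change was -5.06 ± 0.86 (limma adjusted p = 0.0099), with an offset of 16 it was -3.15 ± 0.65 (adjusted p = 0.0158), and with a floor at the background limit -2.04 ± 0.69 (adjusted p = 0.109). Under the first 2 of these settings it passed beside Cxcr4.

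A further Ccr2 probe set, 1421188_at, had 2.29, 5.84 and 9.12 in fetal liver, against 13.46, 98.8 and 141 in marrow. All fetal liver signals and that of marrow replicate 1 were under the background limit, which leaves a fall of at least 1.89-fold in fetal liver. The fourth, 1460067_at, had 6.32, 22.8 and 1.66 in fetal liver, against 18.6, 8.11 and 23.7 in marrow, and the tissues overlapped. With no filter the change of 1421188_at was -2.93 ± 0.90 (log2, SE, limma adjusted p = 0.128) and that of 1460067_at -0.85 ± 0.78 (adjusted p = 0.683). The means of all 4 probe sets were thus lower in fetal liver, but that of 1460067_at not beyond its spread. They differ in how far they are from background.

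Ccr1, a receptor for CCL3, CCL5 and other inflammatory chemokines, was dim in both tissues. Its probe set 1419609_at had 9.34, 11.1 and 3.79 in fetal liver, against 31.4, 34.6 and 34.9 in marrow. The second, 1419610_at, had 0.335, 0.291 and 0.598 in fetal liver, against 21.7, 6.47 and 14.9 in marrow. Every fetal liver signal was under every marrow signal on both. Only 2 marrow arrays of the first probe set exceeded the background limit, which allows a fall of at least 1.11-fold in fetal liver, and the second was under the limit on all 6 arrays, so it has no fold. Neither was tested. With no filter their adjusted p-values were 0.221 and 0.0513 in limma.

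Cx3cr1, the fractalkine receptor of patrolling monocytes and tissue macrophages, was above background only on marrow arrays. Its probe set 1450020_at had 5.98, 6.14 and 18.5 in fetal liver, against 115, 2.19 and 99.4 in marrow. The marrow arrays disagreed with each other, with replicate 2 lower than every fetal liver array, so the tissues overlapped. With 0 fetal liver arrays above background, the mean over these arrays was at least 1.20-fold lower there, a value carried by the other marrow arrays. With no filter the change of this probe set was -1.72 ± 1.13 (log2, SE, limma adjusted p = 0.533), so it did not differ beyond its spread. Probe set 1450019_at had 22.8, 11.6 and 11.8 in fetal liver, against 22.2, 26.6 and 28.0 in marrow, also with an overlap. Both were below the filter.

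Ccr1, Ccr2 and Ccr9 lie close together on chromosome 9 in the GRCm38.p6 gene table, in a run of receptor genes in the order Ccr9, Fyco1, Cxcr6, Xcr1, Ccr1, Ccr1l1, Ccr3 and Ccr2, of which Fyco1 is no receptor. Cx3cr1 lies on the same chromosome, Cxcr4 and Cxcr2 on chromosome 1, Ccr7 on chromosome 11 and Cxcr3 on the X chromosome. Of the other receptors of this run, Cxcr6 was tested and had a change of -0.23 ± 0.84 (log2, SE, limma adjusted p = 0.922). Xcr1 and Ccr3 were below the filter and Ccr1l1 was above background on 0 arrays.

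Cxcr2, the neutrophil receptor for CXCL1, CXCL2 and related chemokines, was near background and did not differ beyond its spread. It had 65.2, 24.9 and 96.0 in fetal liver, against 52.5, 61.5 and 47.3 in marrow. The fetal liver arrays lay on both sides of the marrow arrays. The change was 0.02 ± 0.63 (log2, SE, limma adjusted p = 0.990), with a 95% interval of -1.37 to 1.41, so changes of about this size in either direction cannot be told from none.

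Ccr9, the receptor for the thymic and intestinal chemokine CCL25, had 5 probe sets, all of which overlapped between tissues. Probe set 1442758_at had 76.6, 49.5 and 52.6 in fetal liver, against 114, 47.7 and 63.4 in marrow, a change of -0.25 ± 0.57 (log2, SE, limma adjusted p = 0.860; 95% interval -1.51 to 1.01). Probe set 1421919_a_at had 49.6, 30.3 and 30.8 in fetal liver, against 37.4, 26.0 and 22.5 in marrow, a change of 0.33 ± 0.61 (adjusted p = 0.823; 95% interval -1.02 to 1.68). The 2 tested probe sets thus had opposite signs. The 3 others were below the filter. Among them 1436065_at had 36.7, 2.84 and 9.89 in fetal liver, against 121, 52.0 and 17.3 in marrow, with both tissues spread widely. Probe set 1427419_x_at had 4.26, 1.06 and 0.474 in fetal liver, against 14.7, 11.3 and 2.902 in marrow, all under the background limit. Probe set 1421920_a_at had 22.2, 15.6 and 32.2 in fetal liver, against 34.4, 50.1 and 16.3 in marrow.

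Cxcr3, a receptor for the interferon-induced chemokines CXCL9 and CXCL10, had 40.9, 40.9 and 3.44 in fetal liver, against 30.0, 20.9 and 38.3 in marrow. Fetal liver replicate 3 was the lowest of the 6 arrays and the other fetal liver arrays the highest. Ccr7, the lymph node homing receptor for CCL19 and CCL21, had 4.56, 2.98 and 4.98 in fetal liver, against 1.88, 34.6 and 2.84 in marrow. Only marrow replicate 2 exceeded the background limit for Ccr7. Both genes were below the filter and were not tested.

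**Figure D2:**
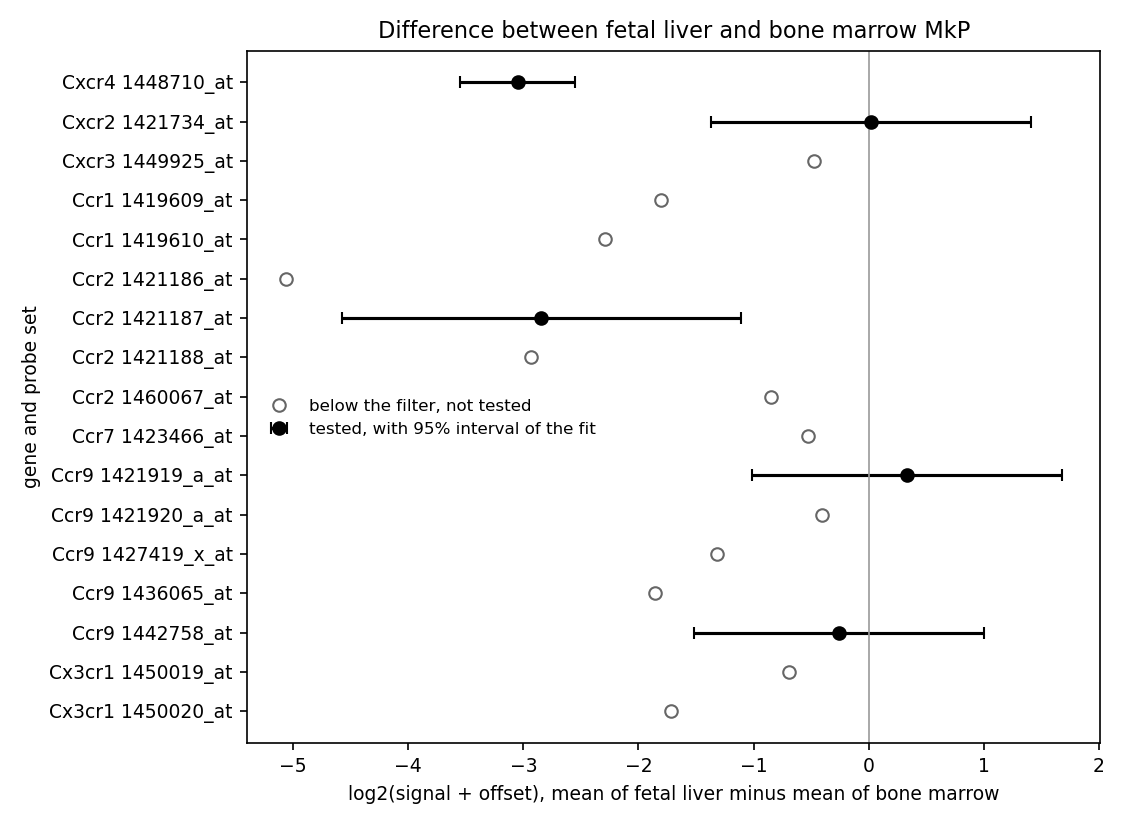
Mean log2(signal + offset) of 3 fetal liver arrays minus that of 3 bone marrow arrays for each chemokine receptor probe set. Filled points are the 5 tested probe sets with the 95% interval of the limma fit, and open points the 12 below the filter; the interval of Cxcr4 runs from -3.55 to -2.55, while those of Cxcr2 and both Ccr9 probe sets span 0.

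Markers of several other myeloid cells were lower in fetal liver, as Cxcr4 was, while erythroid markers were not. Of 13 tested granulocyte and monocyte markers, 11 were lower and 0 higher in fetal liver in limma, with a median change of -5.35 (log2), against 4.09% lower and 2.26% higher (6.36% in all) of 11625 genes taken by their brightest probe set and a median of 0.01 over them. The summed signal of all 17 listed markers of this kind was 5113 to 7385 in fetal liver and 46803 to 74488 in marrow. Of the 17, Ltf, Lcn2, Csf3r, Itgam and Mmp8 were above background on 0 fetal liver arrays, while each of the 17 was above it on at least 1 marrow array. Mpo, the peroxidase of primary granules, averaged 3558 ± 1284 in fetal liver and 17513 ± 8052 in marrow (SD, n = 3 each; limma adjusted p = 0.00546).

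Macrophage markers fell in 2 of 5 tested cases and rose in 0, and the summed signal of 12 was 297 to 454 in fetal liver and 422 to 1880 in marrow. Marrow replicate 3 had the highest macrophage and granulocyte sums and also the highest Ccr2 signals. Mast cell, basophil and eosinophil markers fell in 3 of 8 cases and rose in 0, with sums of 2507 to 6550 in fetal liver and 8800 to 12935 in marrow. Most of each of these sums was the signal of Gata2 alone. Gata2 had 2082, 5797 and 6110 in fetal liver, against 6838, 9979 and 8919 in marrow, and did not pass (limma adjusted p = 0.140). The part of all these myeloid cells in the receptor differences was not tested. Over marrow replicates 1, 2 and 3, Cxcr4 was 9376, 8638 and 10744. The granulocyte and monocyte sum was 51619, 46803 and 74488, and the macrophage sum 971, 422 and 1880, in the same order as Cxcr4. The mast cell, basophil and eosinophil sum, 8800, 12935 and 12737, had another order. Over fetal liver replicates 1, 2 and 3, Cxcr4 was 1139, 1506 and 893, lowest on replicate 3. There the granulocyte and monocyte sum was 5113, 7385 and 5304, and the macrophage sum 296.7, 454.2 and 297.0. The mast cell, basophil and eosinophil sum was 2507, 6434 and 6550. These sums were all lowest on replicate 1, unlike Cxcr4. An order over 3 arrays is a description only.

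Among lymphoid markers, 1 of 4 tested T and NK cell markers fell and 0 of 3 B cell markers passed in limma (1 at an unadjusted p under 0.05). Their sums were 1165 to 1252 and 389 to 613 in fetal liver, against 1789 to 3081 and 790 to 1044 in marrow. Dendritic cell markers passed in 0 of 4 cases (1 at an unadjusted p under 0.05). Of megakaryocyte markers 1 of 15 fell and 0 rose, with sums of 46967 to 56810 in fetal liver and 54021 to 59096 in marrow. The marker that fell was Selp, with a change of -3.66 ± 0.54 (log2, SE, limma adjusted p = 0.00342). Erythroid markers rose in 3 of 8 cases, with sums of 13877 to 27704 in fetal liver and 6734 to 11319 in marrow. Stem and multipotent cell markers fell in 3 of 4 cases, hepatocyte markers passed in 0 of 6 (3 at an unadjusted p under 0.05), and 1 of 5 stromal and endothelial markers rose. Beside these counts, 4.09% of all 11625 genes were lower in fetal liver and 2.26% higher.

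**Figure D3:**
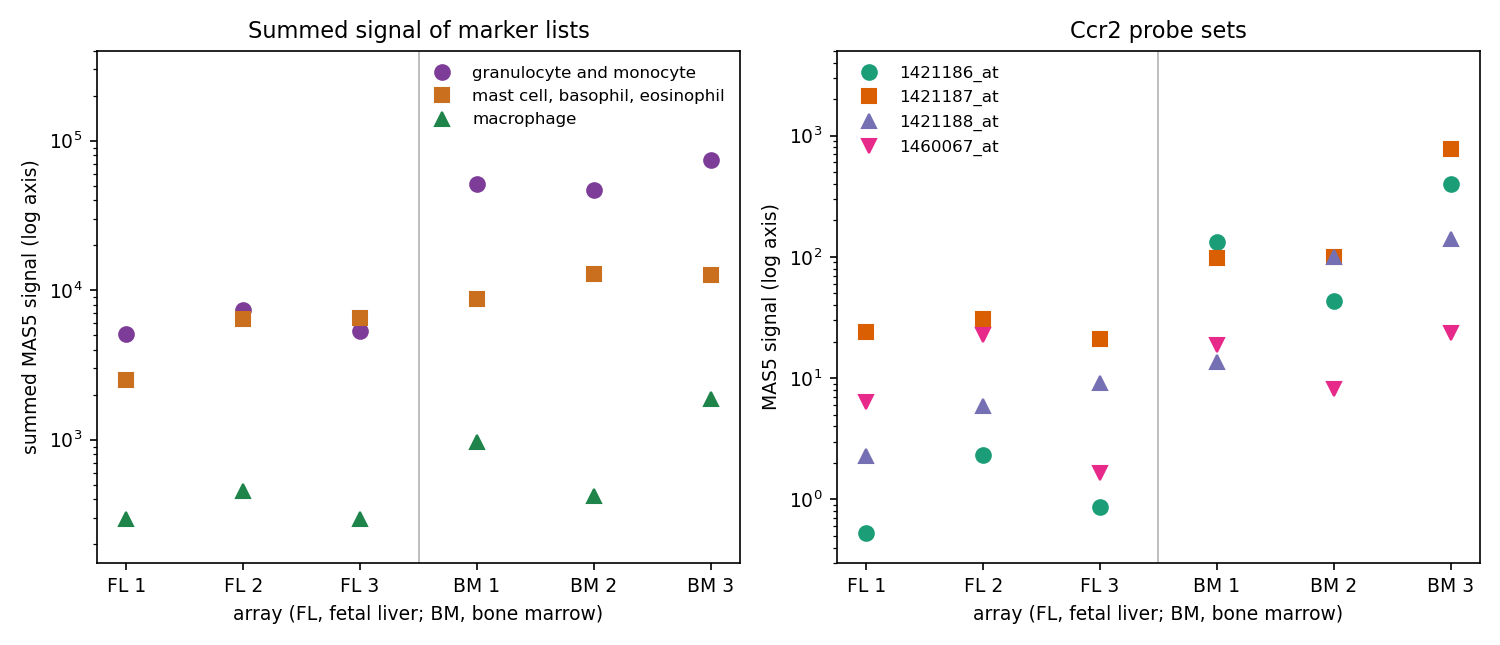
Left, summed MAS5 signal (log axis) of the granulocyte and monocyte, mast cell and macrophage marker lists in each of 3 fetal liver and 3 bone marrow arrays; right, MAS5 signal (log axis) of the 4 Ccr2 probe sets in the same arrays. Marrow replicate 3 is highest for the granulocyte and monocyte and macrophage sums and for every Ccr2 probe set. Most of each mast cell sum is the signal of Gata2 alone.

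Of 15 further chemokine receptors with a named probe set, 2 (Ackr1 and Ackr4) were above background on all 6 arrays, 7 were above background on 0 arrays (Cxcr5, Ccr4, Ccr6, Ccr8, Ackr2, Cmklr1 and Ccr1l1) and 4 could be tested. In limma 0 of the 4 passed, 2 had an unadjusted p under 0.05, and the median change was -0.65 (log2). Ccrl2, an atypical receptor that binds chemerin, had 29.9, 49.4 and 30.7 in fetal liver, against 160, 115 and 138 in marrow. Its tissues did not overlap, and its change was -1.85 ± 0.53 (SE, limma adjusted p = 0.0735). It passed with a floor at background (adjusted p = 0.0493), without the variance trend (0.0322) and with 1 mean per gene (0.0343).

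Ackr4, a scavenger of CCL19, CCL21 and CCL25, was above background on all 6 arrays. It had 921, 1076 and 1290 in fetal liver, against 1063, 2327 and 2363 in marrow. Marrow replicate 1 lay among the fetal liver arrays, and the change was -0.73 ± 0.33 (log2, SE, limma adjusted p = 0.246). Without marrow replicate 1 it was -1.11 (adjusted p = 0.0497). Ackr3, the second receptor for CXCL12, had 10.6, 35.1 and 1.14 in fetal liver, against 8.04, 0.604 and 1.45 in marrow, with 1 fetal liver array above background.

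Of 36 chemokine ligands with a named probe set, 14 were tested, 2 were lower and 0 higher in fetal liver in limma, and the median change was -0.16 (log2). Over all 11625 genes 4.09% were lower and 2.26% higher. At an unadjusted p under 0.05, 2 of the ligands were higher. Cxcl12, the ligand of CXCR4, was above background on 0 fetal liver arrays and on 2 marrow arrays, counting any of its 3 probe sets. The brightest of these had 2.10, 4.29 and 17.5 in fetal liver, against 59.7, 2.44 and 6.58 in marrow. Ligand RNA of stromal cells outside the sort gate was not measured here.

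The called ligands were Ccl9 and Ccl6, both ligands of CCR1 in the mouse and made by myeloid cells. Ccl9 had 22.9, 109 and 70.1 in fetal liver, against 526, 315 and 2071 in marrow, a change of -3.56 ± 0.74 (log2, SE, limma adjusted p = 0.0202). Ccl6 had 31.6, 39.2 and 34.2 in fetal liver, against 119, 146 and 251 in marrow, a change of -2.14 ± 0.54 (adjusted p = 0.0470). In both, fetal liver lay wholly under marrow and marrow replicate 3 was the highest array, as for Ccr2. The calls were not stable. Ccl6 missed the threshold without any 1 of the 6 arrays (adjusted p = 0.0607 to 0.148). Ccl9 missed it without fetal liver replicate 1 (0.0648), fetal liver replicate 3 (0.0548) or marrow replicate 3 (0.0612), and without the variance trend (0.0813).

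Pf4, the platelet chemokine CXCL4 and a product of megakaryocytes, was bright in both tissues. It had 19031, 15264 and 16541 in fetal liver, against 22903, 20368 and 20094 in marrow. The tissues did not overlap, but the change of -0.32 ± 0.14 (log2, SE, limma adjusted p = 0.232) did not pass.

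Genes that carry or limit the receptors' signal were detected in MkP of both tissues, and several fell in fetal liver. Of 49 with a named probe set, 43 were above background on all 6 arrays and 47 were tested. In limma 7 were lower and 0 higher (2 higher at an unadjusted p under 0.05, of which Ptpn11 passed with median centring), with 35 of 47 changes below 0 and a median of -0.30. Over all genes by their brightest probe set 4.09% were lower and 2.26% higher, with 5749 of 11625 changes below 0 and a median of 0.01. The 7 were Rgs1, Rgs2, Grk3, Cd74, Gng2, Elmo1 and Pik3r5, that is 2 regulators of G protein signalling, a receptor kinase, the receptor chain of MIF, a G protein subunit and 2 effectors. Pik3r5, a regulatory subunit of phosphoinositide 3-kinase gamma, had 57.6, 10.5 and 6.64 in fetal liver, where 1 array was above background, against 206, 121 and 179 in marrow. Its change of -3.08 ± 0.74 (log2, SE, limma adjusted p = 0.0400) did not pass with no filter (adjusted p = 0.0664).

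Rgs1, which shortens signalling of receptors coupled to inhibitory G proteins, had 528, 377 and 283 in fetal liver, against 5958, 4915 and 5764 in marrow. Its change of -3.84 ± 0.27 (log2, SE, limma adjusted p = 4.67e-05) held under all 17 alternatives. Rgs2, which acts mainly on the Gq class, had 223, 308 and 215 in fetal liver, against 2161, 2480 and 3571 in marrow, a change of -3.43 ± 0.30 (adjusted p = 1.80e-04). Its other 2 tested probe sets gave -2.55 and -3.03 and also passed. For Rgs1 and Rgs2 the tissues were far apart.

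Grk3, a kinase that phosphorylates activated receptors such as CXCR4 and so desensitizes them, was lower in fetal liver on each of its 3 tested probe sets. The probe set of the largest mean, 1440801_s_at, had 51.1, 96.2 and 178 in fetal liver, against 1615, 1320 and 1180 in marrow, a change of -3.79 ± 0.45 (log2, SE, limma adjusted p = 0.00109). The other probe sets gave smaller changes of -1.56 (adjusted p = 0.0792) and -1.95 (adjusted p = 0.0324). Cd74, which binds MIF and can associate with CXCR4, had 43.6, 86.5 and 3.56 in fetal liver, against 249, 373 and 714 in marrow. Its change of -3.77 ± 0.88 (adjusted p = 0.0346) missed the threshold in 5 of the 6 fits without 1 array (adjusted p up to 0.103); Cd74 is also abundant in antigen-presenting cells.

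The probe sets of Gng2 and Elmo1 disagreed in size. The brightest of Gng2 fell by 2.32 on the log2 scale (limma adjusted p = 0.00304), and its other 3 gave -1.22 to -2.87 without passing. That of Elmo1, a subunit of an activator of Rac, fell by 1.57 (adjusted p = 0.0094), and its other gave -0.53 (adjusted p = 0.680). Among signalling genes that did not pass, chosen after their values were seen, were the inhibitory G protein subunits Gnai2 (-0.39 ± 0.22, adjusted p = 0.367) and Gnai3 (-0.14 ± 0.19, adjusted p = 0.747), and the arrestins Arrb1 (0.42 ± 0.23, adjusted p = 0.358) and Arrb2 (-0.17 ± 0.14, adjusted p = 0.574).

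**Figure D4:**
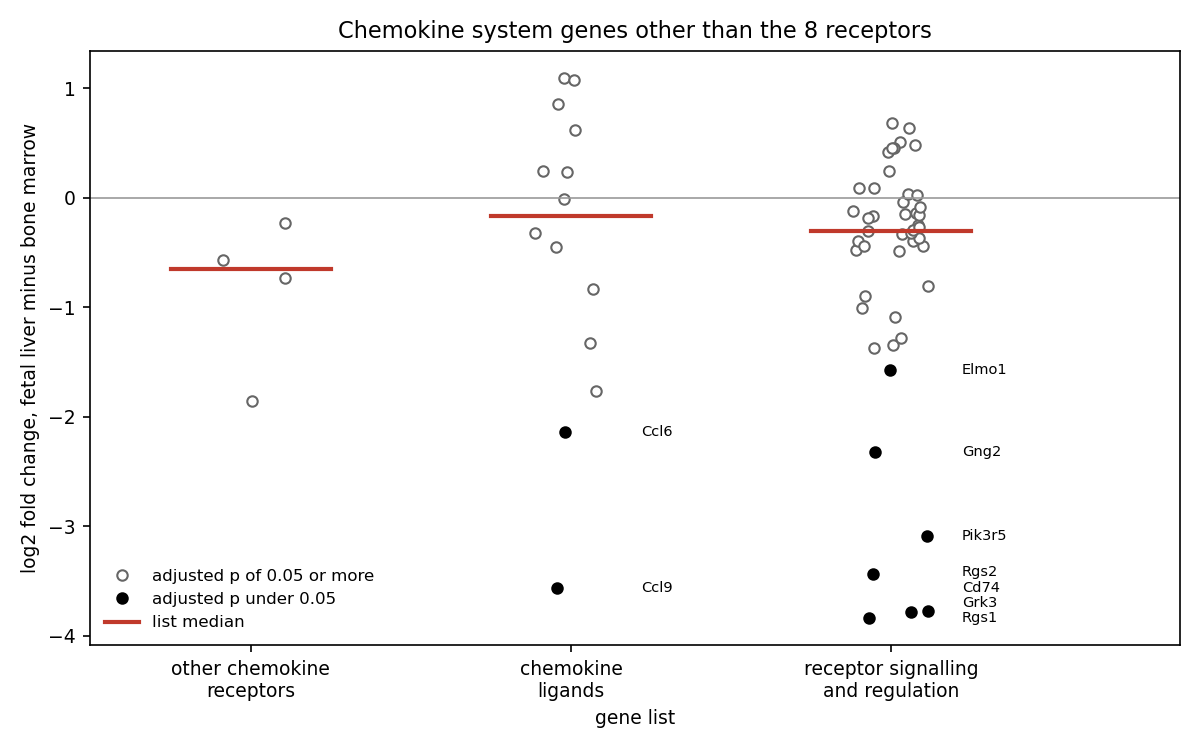
Log2 fold change (fetal liver minus bone marrow) of each tested gene of the other chemokine receptors, the chemokine ligands and the receptor signalling genes, by its brightest tested probe set. Filled points have a limma adjusted p under 0.05 and red lines are list medians (-0.65, -0.16 and -0.30); all filled points lie below 0, and Ptpn11 alone would be filled above 0 with median centring.

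The genes whose profile over the 6 arrays lay nearest to that of Cxcr4 were Osm, Tap1, Neat1, Pde4b and Lgals3bp, by the root mean square difference of log2 values centred on each probe set's mean, which was 0.23, 0.23, 0.23, 0.25 and 0.26. Osm, the cytokine oncostatin M, had 32.9, 34.3 and 15.1 in fetal liver, where 1 array was above background, against 262, 184 and 298 in marrow. Most of these fetal liver signals were under the background limit. Tap1, a peptide transporter of antigen presentation, had 143, 225 and 139 in fetal liver, against 1254, 1778 and 1465 in marrow. Neat1, the long noncoding RNA of paraspeckles, had 317, 334 and 231 in fetal liver, against 2686, 2646 and 2054 in marrow. Both were above background on all 6 arrays with no overlap of tissues. Lgals3bp, a secreted glycoprotein that binds galectins, had 50.9, 86.6 and 45.6 in fetal liver, against 676, 353 and 549 in marrow.

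Changes of these 5 genes were between -3.15 (Tap1) and -3.03 (Pde4b) on the log2 scale, near that of Cxcr4, as the measure of likeness requires. The Pde4b value is that of 1442700_at. The other 2 tested probe sets of Pde4b, a phosphodiesterase that degrades cyclic AMP, gave -1.95 and -2.06. Both tissues enter the measure, so genes with a like difference between tissues rank high, and the likeness is a description over 6 arrays.

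**Figure D5:**
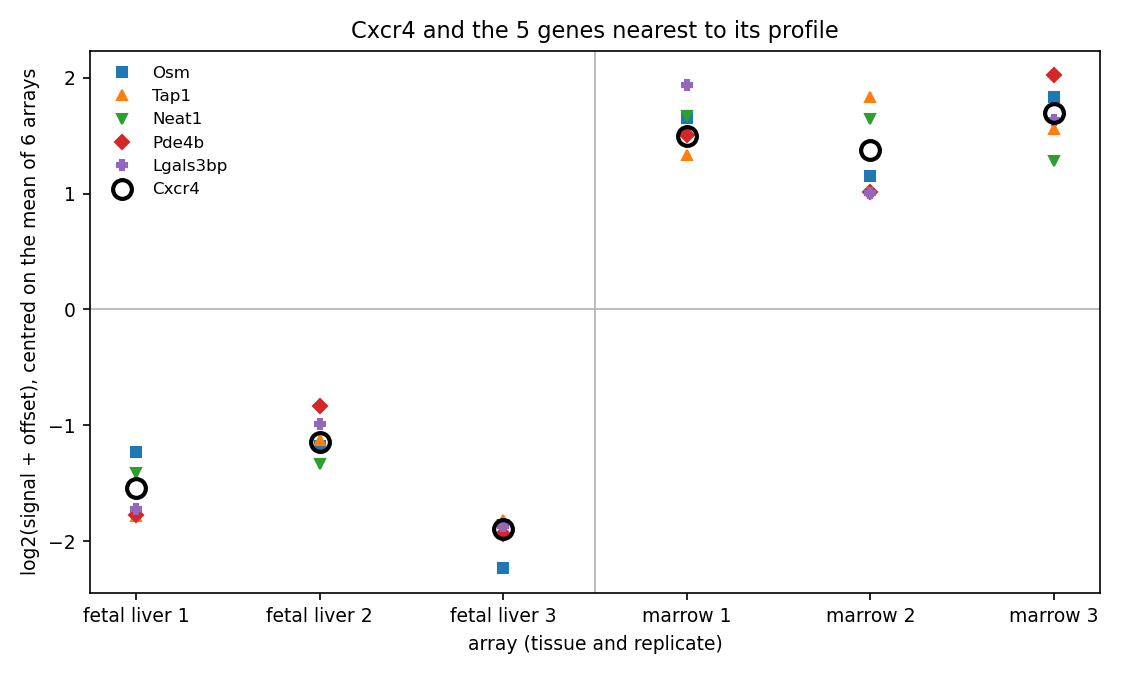
Log2(signal + offset) of Cxcr4 (open circles) and the 5 nearest genes on each of 3 fetal liver and 3 bone marrow arrays, each centred on its own mean over the 6 arrays. All lie below 0 on the fetal liver arrays and above 0 on the marrow arrays, with fetal liver replicate 3 the lowest for Cxcr4.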

How the data were processed

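Probe set intensity signals, not log transformed, were deposited. MAS5 is the tool named for them per the submitters' processing notes, with no scaling target or later step known, and every array had a trimmed mean of 500 (2% cut from each tail). Signals were analysed as log2(signal + 2.87), the offset being the 10th percentile of all signals. The offset shrinks changes of dim probe sets, but signals under the background limit still enter them. The size of such changes therefore depends on the offset. For Ccr2 1421186_at it was -5.06 with this offset and no filter, and -3.15 with an offset of 16. The 64 control probe sets were left out. The comparison of fetal liver and bone marrow used limma 3.58.1 (R 4.3.3), with lmFit, eBayes and its trend option, and p-values adjusted by Benjamini-Hochberg over the 27022 tested probe sets and a threshold of 0.05. Every log2 fold change subtracts marrow from fetal liver. In gene lists each gene stood by its tested probe set of highest mean (11625 genes).

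Where a probe set was under the background limit on all arrays of 1 tissue, "at least N-fold" sets the mean log2 of the other tissue against that of the higher of the limit and the signal on each array. By the platform annotation 34945 probe sets other than controls had 1 symbol, 932 several and 9160 none, and 34754 matched the RefSeq gene table (GRCm38.p6) by gene ID. Promoter windows of 7 of the 8 receptors were found, all but that of Ccr7. The array values carry no genome build.

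The receptors and gene lists were chosen with earlier results of these data known, and no list was tested as a set. Named besides the receptors were up to 4 called members of each pathway list with the largest change (the 2 of smallest p where none passed), Cxcl12, Ackr3, Pf4, Itga2b, Kit and Slamf1, the brightest markers where they stand beside a receptor result, and the 5 genes nearest to Cxcr4. Cxcr6, Ccr1l1, Xcr1 and Ccr3 were added as neighbours, and Selp and other called or core signalling genes after their values were seen. Tested on simulated data for the same 27022 probe sets, the comparison found 1 of 67 altered by 2-fold. It found 17 of 67 at 4-fold and 52 of 66 at 16-fold, with 1 false call. Far fewer probe sets were altered there than the 1368 called in the data, which affects the adjusted p-values. The noise was drawn from each probe set's own spread over these arrays. These shares therefore do not give the rates for the data. The number of arrays limits the precision. Alternatives covered the offset, scaling, filter, a floor at background, the variance model, the unit tested, a replicate block and each array left out. Figures were drawn with matplotlib 3.10.9.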

Additional observations from a re-analysis of the deposited data

How the results depend on the processing

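Cxcr4 kept its direction and call in all 17 alternatives, with changes of -3.24 to -2.80 and adjusted p of 1.29e-05 to 0.00696, and no receptor was higher in any of them. The number of receptor probe sets lower in fetal liver was 2 with an offset of 16 and 2 with no filter, the second being Ccr2 1421186_at, and 1 to 1 without single arrays. The tested Ccr2 probe set missed the threshold in all 16 alternatives that kept it (adjusted p = 0.0516 to 0.190). Without single arrays Cxcr2 ran over -0.38 to 0.54 and Ccr9 1442758_at over -0.52 to 0.083. Cxcr2 turned to -0.11 without fetal liver replicate 1, -0.38 without fetal liver replicate 3 and -0.06 without marrow replicate 3. Ccr9 1442758_at turned to 0.038 as a mean of probe sets and 0.083 without marrow replicate 1. Over all probe sets, 1291 were higher with median centring, which moved the median by 0.25, and the lower share of calls was then 35.2%, against 64.8% as deposited. Without the variance trend 195 were higher and 526 lower, and 553 and 589 were lower with 1 probe set or 1 mean per gene. Without single arrays 140 to 455 were higher and 477 to 689 lower, with 251, 140 and 140 higher without fetal liver replicate 1, 2 or 3, and 501 and 477 lower without fetal liver replicate 2 or 3. Other receptors lower were 1 with the floor, without the trend and with gene means (Ccrl2 in each), and 0 to 1 without single arrays. Ligands lower were 1 with quantile normalization, median centring, a filter at the 60th percentile, no trend and the replicate block, and 0 to 1 without single arrays. Signalling genes higher were 1 (Ptpn11) with median centring, 1 probe set or mean per gene and the replicate block. The causes were not tested. Whether samples of 1 number share more than that number cannot be told from so few arrays. Deviations of same-numbered arrays correlated at 0.12, -0.02 and 0.10, and those of other pairs at -0.15 to 0.09. The replicate block gave 717 higher and 1077 lower, against 482 and 886 without it. Dim signals near the background limit bound most receptor values.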
